A study of Canis lupus familiaris with 5 samples.

Results

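The cells described here are 1188 non-cycling stem-like cells of the dog that carry DNTT transcripts, taken from the 2 libraries of CD34-sorted bone marrow. They were chosen by counts of UMIs (unique molecular identifiers, each marking 1 captured transcript). Each barcode had 200 genes or more, no more than 10% of its UMIs from mitochondrial genes, a sum of at least 6 UMIs over 5 stem-like genes (SULT1B1, TFPI, RARRES2, ADGRG1 and MSRB3), at most 2 VPREB1 UMIs, no PAX5 UMI, at most 1 GATA1 UMI, MPO below 0.02% of its UMIs, fewer than 3 MKI67 and TOP2A UMIs together, and at least 3 DNTT UMIs. Sorted library 1 gave 600 such cells of 4720 kept barcodes, 12.7% (exact binomial 95% interval 11.8 to 13.7%), and sorted library 2 gave 588 of 3765, 15.6% (14.5 to 16.8%). Together they are 1188 of 8485 kept barcodes of the sorted libraries and of 24708 kept in the whole study. Because these 12 genes chose the cells, their levels are given below as a description and are not tested between classes. The one test that uses them compares how many barcodes met all the limits in each library.

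The study profiled femoral marrow of 3 healthy dogs labelled wild type, without treatment named in the labels. Red cells were lysed, each marrow was loaded whole (3 libraries), and viable CD34-positive cells were sorted by flow cytometry from 2 of the marrows (2 libraries). Breed, age and sex are not stated in the sources used here. Total UMIs were 62188030 and 70169186 in sorted libraries 1 and 2, and 46114431 to 54074420 in the whole marrow libraries. The cells themselves had a median of 13735 UMIs and 2586 genes in library 1, and 16377 UMIs and 2889.5 genes in library 2. Pairs of libraries shared 4 to 12 barcodes, and 1 barcode belonged to a cell of this kind in both sorted libraries. Doublet scoring took 9 and 4 of the cells for doublets.

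DNTT encodes terminal deoxynucleotidyl transferase, the polymerase that adds untemplated bases at the joints of rearranging antigen receptor genes. Its transcripts appear in lymphoid-primed multipotent progenitors and common lymphoid progenitors, before the RAG1 and RAG2 recombinase and before the B-lineage factors EBF1 and PAX5. Such progenitors also carry FLT3, a receptor tyrosine kinase, and later IL7R, the interleukin-7 receptor chain, while genes of the erythroid, megakaryocyte and mast cell paths are turned down.

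3 comparison classes came from the same sorted libraries and were also non-cycling by the same MKI67 and TOP2A limit. The DNTT-low stem-like cells met every limit except that they had at most 2 DNTT UMIs (430 cells in library 1 and 212 in library 2). The VPREB1+PAX5+ cells had at least 3 VPREB1 and at least 1 PAX5 UMI, the surrogate light chain and transcription factor of pro-B cells (1016 and 469 cells). The MPO-positive cells had MPO at 0.02% of UMIs or more, myeloperoxidase being a granule enzyme of early neutrophil and monocyte precursors (377 and 311 cells). Levels are in CPM, the gene's counts per 1000000 UMIs summed over the cells of a class in 1 library.

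The limit on DNTT cut through a continuous range of counts. The median cell had 5 DNTT UMIs in library 1 and 6 in library 2, and the highest had 43 and 53. Of the cells just inside the limit, 187 and 88 had exactly 3 DNTT UMIs, while just outside it 165 and 94 stem-like cells had 2, 160 and 83 had 1, and 105 and 35 had none. Cells with 3 or 4 DNTT UMIs made up 49.3% of the library 1 cells and 32.0% of the library 2 cells. The other limits cut through counts as well. Of the cells, 169 and 210 had 1 or 2 VPREB1 UMIs, and 123 and 101 cells that met every other limit had 3 or more. For MKI67 and TOP2A together, 124 and 160 of the cells had 1 or 2 UMIs, and 210 and 146 cells were set aside by that limit alone. MPO alone set aside 93 and 104 cells. The sum of the 5 stem-like genes was 6 or 7 in 61 and 33 cells, and 54 and 26 cells that met every other limit had a sum of 4 or 5.

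**Figure D1:**
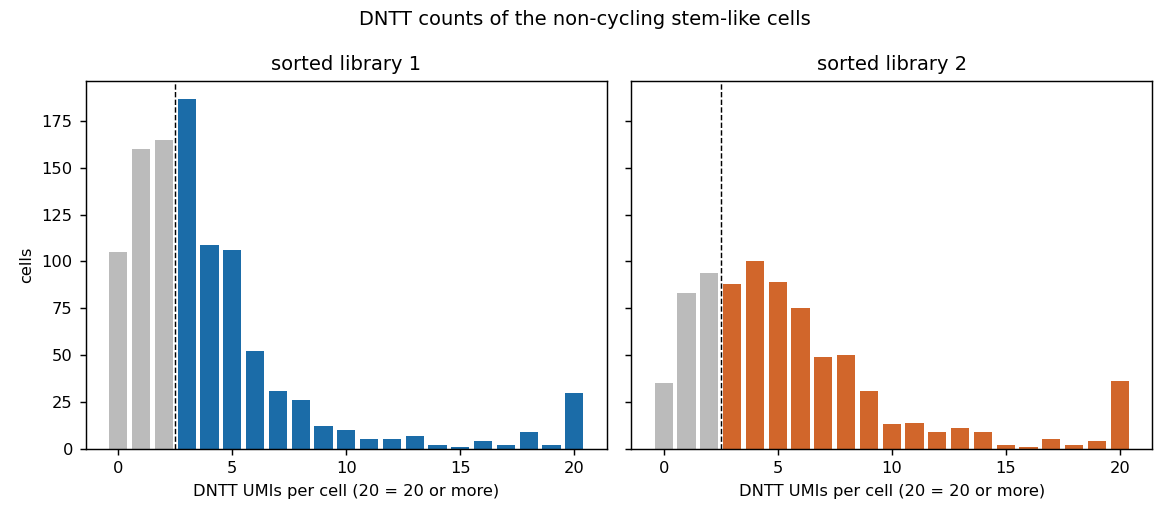
DNTT UMIs per cell (x axis, cells with 20 or more drawn at 20) against the number of non-cycling stem-like cells (y axis) in each sorted library. Colored bars are the 600 and 588 cells described, grey bars the 430 and 212 DNTT-low cells, and the dashed line is the limit, with no gap in the counts on either side of it.

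DNTT of 3 UMIs or more was found in 58.3% of the non-cycling stem-like cells of library 1 (95% interval 55.2 to 61.3%) and 73.5% of those of library 2 (70.3 to 76.5%). Among the stem-like cells that the limit on MKI67 and TOP2A set aside as cycling, the shares were 74.2% (210 of 283) and 89.6% (146 of 163). The cycling share was the higher in both libraries. With a UMI limit the share also moves with depth, and these intervals cover counting error only.

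The same limits, which make no use of CD34, were applied to whole marrow to ask whether such cells were found there without the sort. They selected 13 of 7295, 6 of 4585 and 17 of 4343 barcodes, shares of 0.178%, 0.131% and 0.391%. The sorted libraries held 14.2% ± 2.05 (SD, n = 2) and the whole marrows 0.234% ± 0.139 (SD, n = 3), a 60.7-fold difference with no overlap. An exact permutation of the library labels (two-sided, 10 possible splits) gave p = 0.1, the smallest possible here. It treats libraries as independent although the sorted cells came from 2 of the same dogs. The limits were drawn for cells of the sorted libraries, so a larger share there was built into the comparison and this p lends no support. Without whole marrow 3, which held the largest share, the difference was 91.7-fold. Of the non-cycling stem-like cells in whole marrow, 21.3%, 11.8% and 43.6% had at least 3 DNTT UMIs, against 58.3% and 73.5% in the sorted libraries, a description with no test, since DNTT chose the cells. Median depth over kept barcodes was 2694 to 4344 UMIs in whole marrow and 11622 and 14623 in the sorted libraries, and its part in these shares was not tested beyond a depth window of 8000 to 20000 UMIs per cell, within which the fold was 45.3.

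The 4 markers named for the cells were all present. DNTT stood at 449 CPM in library 1 and 459 CPM in library 2, against 88.4 and 90.7 CPM in DNTT-low cells, 106 and 118 CPM in MPO-positive cells, and 2440 and 2642 CPM in VPREB1+PAX5+ cells. The limit itself set the cells above DNTT-low cells, and VPREB1+PAX5+ cells stood higher in both libraries. When every cell was thinned to 5000 UMIs, 87.7% and 84.3% of the cells still had a DNTT UMI. So did 43.5% and 48.3% of DNTT-low cells, and 97.1% and 82.6% of the 243 and 121 VPREB1+PAX5+ cells of that depth. Of sorted cells with at least 5 GATA1 UMIs, taken as an erythroid-type reference, 15.6% and 19.4% had a DNTT UMI after this thinning. At full depth 54.4% and 59.7% of them had one (52.8 and 48.7 CPM), so they are not a DNTT-free reference.

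CD34, the antigen of the sort and a surface glycoprotein of stem and progenitor cells, was at 505 and 426 CPM. It was at 457 and 346 CPM in DNTT-low cells, 475 and 192 CPM in VPREB1+PAX5+ cells and 265 and 186 CPM in MPO-positive cells. ADGRG1, an adhesion receptor of stem cells that the choice of cells used, was at 178 and 150 CPM, close to the 179 and 177 CPM of DNTT-low cells. FLT3 was at 46.9 and 45.4 CPM, higher in both libraries than in DNTT-low cells (34.3 and 27.1 CPM), MPO-positive cells (27.8 and 26.1 CPM) and VPREB1+PAX5+ cells (25.0 and 16.5 CPM). At 5000 UMIs a FLT3 transcript was caught in 19.0% and 20.5% of the cells and in 16.7% and 13.4% of DNTT-low cells. It was caught in 12.8% and 4.96% of VPREB1+PAX5+ cells and in 1.11% and 3.23% of the GATA1-high cells. KIT, the stem cell factor receptor, was at 93.5 and 116 CPM, against 94.1 and 117 CPM in DNTT-low cells.

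**Figure D2:**
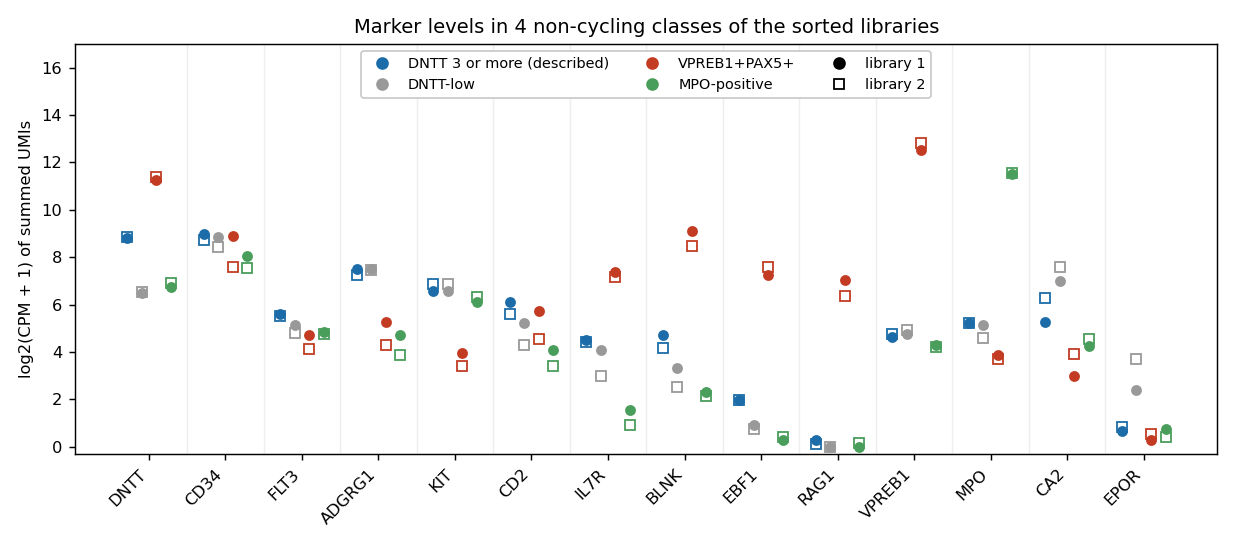
Levels of 14 marker genes (y axis, log2 of CPM plus 1) in the 4 non-cycling classes of the sorted libraries, 1 point per class and library. The cells described share KIT and ADGRG1 levels with DNTT-low cells, lie between them and VPREB1+PAX5+ cells for BLNK, and lack RAG1 as DNTT-low and MPO-positive cells do.

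Markers of other cell types were at different levels in the cells. Of 6 B-lineage markers (CD79A left aside), PAX5 was at 0 by the choice of cells and the others summed to 33.9 and 36.7 CPM, against 7273 and 8246 CPM in VPREB1+PAX5+ cells. RAG1 had 2 and 1 counts among all of the cells and RAG2 had 1 and 0. CD79A, an antigen receptor chain, was at 12542 and 12091 CPM here and at 11831 and 11567 CPM in GATA1-high cells, with a UMI in 100% of cells of every class, so its counts in these files cannot be read as a B-lineage signal. Of the 6 T cell markers, CD2 (67.3 and 48.1 CPM) and CD3D (49.5 and 54.4 CPM) carried most of the summed 119 and 104 CPM, while CD3E, CD3G, CD5 and LCK were each at or below 1.05 CPM. The T cell sum was 86.2 and 82.3 CPM in DNTT-low cells and 22.02 and 13.5 CPM in MPO-positive cells. In VPREB1+PAX5+ cells it was higher, at 121 and 195 CPM, with CD3D at 67.4 and 171 CPM. Of 3 plasmacytoid dendritic markers in the files, TCF4 gave nearly all of the summed 150 and 139 CPM. That sum was 104 and 89.0 CPM in DNTT-low cells, 62.1 and 59.8 CPM in MPO-positive cells and 601 and 395 CPM in VPREB1+PAX5+ cells.

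The 3 monocyte and macrophage markers summed to 0.233 and 0.200 CPM with CSF1R and C1QB at 0, the 2 megakaryocyte markers to 0.233 and 1.00 CPM with PPBP at 0, and the 5 erythroid markers to 3.96 and 4.21 CPM. Of 5 mature neutrophil markers MMP8 and LCN2 were at 0, and LTF, at 56.1 and 49.0 CPM, gave nearly all of the sum. LTF was also present in DNTT-low cells, at 47.2 and 36.8 CPM. The 4 endothelial markers summed to 12.9 and 8.72 CPM, nearly all of it TEK, a receptor that stem cells share.

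The first tested question was which other genes differed between the cells and DNTT-low stem-like cells, whose median depths were 12474 and 13479 UMIs against 13735 and 16377. Counts were summed per library and class and tested with edgeR's quasi-likelihood test with the library as a block, on 9900 genes, leaving out the 12 genes of the choice. Since both classes were cut by DNTT in the same cells, the test finds genes that go with DNTT. Its error reflects how differences between classes varied from 1 library to the other, pooled over 4 classes. The spread that the classes of a library share is taken out by the block. Of the genes tested, 130 (1.31%) passed an adjusted p of 0.05, with 68 (0.687%) higher and 62 (0.626%) lower in the cells. Without the block 4 passed. All 130 kept their direction there, but each class had 1 sum in each library, so dropping the block could hardly move the log2 differences.

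The genes that rose included UHRF1, DPEP1, BLNK and PLAC8. They were taken from the genes that passed, so a lack of overlap between the groups lends them no further support. UHRF1, which links DNA methylation to replicating chromatin, was at 65.6 and 77.1 CPM in the cells and 24.5 and 24.1 CPM in DNTT-low cells. The groups did not overlap, and the log2 difference was 1.50 ± 0.11 (SE, edgeR adjusted p = 1.67e-11), a 2.83-fold level. DPEP1, a membrane dipeptidase, was at 15.5 and 17.3 CPM against 3.79 and 5.02 CPM, a log2 difference of 1.92 ± 0.20. BLNK, the adaptor that couples the pre-B and B cell receptor to its signalling enzymes, was at 25.3 and 16.9 CPM against 9.02 and 4.69 CPM, a log2 difference of 1.57 ± 0.17. PLAC8, a small cysteine-rich protein, was at 29.8 and 18.9 CPM against 11.2 and 3.35 CPM, a log2 difference of 1.62 ± 0.19. All 4 genes were higher in both libraries with no overlap between the groups, and they passed in each of the 4 fits that left out 1 sum (PLAC8 at 2.52 without the DNTT-low cells of library 1). TXLNB, a gene known from muscle and named here after its values were seen, was at 14.7 and 8.22 CPM against 0.361 and 1.34 CPM, a log2 difference of 4.10 ± 0.45 (edgeR adjusted p = 4.25e-07). Without the DNTT-low cells of library 1 it was 2.49 and did not pass.

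Of 24 tested genes of the early lymphoid list, 4 were higher, none lower, and the median log2 difference was 0.29 against -0.01 over all genes. The 4 were FLT3 (log2 difference 0.56 ± 0.13, edgeR adjusted p = 0.00963), IL7R (0.76 ± 0.18), the chromatin organizer SATB1 (0.67 ± 0.17) and CCR9, a chemokine receptor of thymus-seeding progenitors (0.99). IL7R was at 21.5 and 20.1 CPM against 15.9 and 7.03 CPM, so its step was far larger in library 2. Its difference was 1.45 without the DNTT-low cells of library 1 and 0.50, not passing, without those of library 2. IL7R did not pass with DESeq2 (0.86), with DNTT cut as a share of UMIs (1.31) or with 6 or more DNTT UMIs against 0 (0.20). SATB1 was at 30.5 and 23.5 CPM against 18.2 and 16.1 CPM. The list's count of 4 was 0 with DESeq2, 1 in the depth window and 0 to 3 when 1 sum was left out, with 0 when either the cells or the DNTT-low cells of library 2 were left out. SATB1 and CCR9 passed in none of these left-out fits. Members that did not pass included RAG1 with no UMI in DNTT-low cells, IKZF1 (0.19), MEF2C (0.31), ETS1 (0.19) and FOXO1 (0.01).

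Of 16 tested B-lineage genes, 2 were higher, DPEP1 and BLNK, and none lower. EBF1, the factor that opens the B-lineage program, was at 2.91 and 2.91 CPM against 0.902 and 0.670 CPM, with an edgeR adjusted p of 0.0507 that missed the threshold. CD2, an adhesion receptor of T, NK and some early progenitor cells, was at 67.3 and 48.1 CPM against 36.2 and 18.4 CPM, a log2 difference of 1.07 ± 0.14. GATA3 and ZBTB16, transcription factors of T and innate lymphoid cells that stem cells also carry, were lower: GATA3 at 7.34 and 4.81 CPM against 24.2 and 9.37 CPM, ZBTB16 at 8.97 and 15.5 CPM against 16.8 and 30.8 CPM. The T, NK and innate lymphoid list therefore held 1 higher and 2 lower genes of 5 tested, and 1 and 0 with DESeq2. On the dendritic list, 2 of 8 were higher, FLT3 and CCDC88A, and 0 with DESeq2, while TCF4, the plasmacytoid dendritic factor, at 147 and 136 CPM against 102 and 88.4 CPM, did not pass (edgeR adjusted p = 0.209).

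Further genes that rose by the rule for named genes were HIVEP3 (log2 difference 1.11), the AXL receptor ligand GAS6 (0.99), the sorting receptor SORL1 (0.88), RASSF9 (0.86), CCDC50 (0.77), the lysosomal growth factor progranulin GRN (0.68), TESC (0.66) and the mast cell chymase CMA1 (0.66). Their folds over DNTT-low cells ran from 1.57 for CMA1 to 2.15 for HIVEP3, and each was higher in both libraries, as that rule required. HIVEP3, CCDC50 and GRN passed in all 4 fits that left out 1 sum, and the other 5 genes did not. HIVEP3 was at 56.0 and 56.3 CPM against 28.5 and 21.4 CPM. SELPLG, the selectin ligand used for homing, was the 1 gene of 23 on the homing list that passed (27.6 and 29.8 CPM against 19.8 and 17.7 CPM), and it passed neither with DESeq2 nor in any fit that left out 1 sum. Values for CXCR4, the marrow retention receptor, were 63.8 and 100 CPM against 46.3 and 80.7 CPM and did not pass (edgeR adjusted p = 0.139).

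Genes of the erythroid and megakaryocyte list were among those that fell. Of 15 tested erythroid and megakaryocyte genes, 6 were lower and none higher, with a median log2 difference of -0.61. The count of lower genes was 1 with DESeq2, 0 in the depth window and 0 to 3 when 1 sum was left out, the 0 without the DNTT-low cells of library 2. EPOR, the erythropoietin receptor, was at 0.582 and 0.801 CPM in the cells and 4.33 and 12.1 CPM in DNTT-low cells. KLF1, the erythroid master factor, was at 0.349 and 1.20 CPM against 2.70 and 8.37 CPM, and ITGA2B, the platelet integrin chain, at 0.233 and 1.00 CPM against 3.61 and 5.02 CPM. Each was lower in the cells in both libraries, but few DNTT-low cells carried these counts. EPOR was caught in 4.19% and 8.96% of DNTT-low cells, KLF1 in 1.86% and 7.55%, and ITGA2B in 1.16% and 2.83%. PLEK, a platelet protein kinase C substrate (log2 difference -0.61 ± 0.12), and NFE2, a megakaryocyte factor (-0.52 ± 0.12), passed in 1 and 0 of the 4 fits that left out 1 sum.

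CA2, a carbonic anhydrase abundant in red cells, was at 36.9 and 75.6 CPM against 127 and 191 CPM, a log2 difference of -1.54 ± 0.11 (edgeR adjusted p = 4.74e-09). With barcodes called doublets left out CA2 was at -1.56 and did not pass (edgeR adjusted p = 0.0568). The 2 chains of the high-affinity IgE receptor of mast cells and basophils were lower as well. FCER1A was at 41.5 and 63.6 CPM against 108 and 181 CPM (-1.45 ± 0.10), and MS4A2 at 11.9 and 13.4 CPM against 25.2 and 38.8 CPM (-1.30 ± 0.18). CPA3, a mast cell protease, was at 2.33 and 2.30 CPM against 4.51 and 16.1 CPM. The basophil and mast cell markers together summed to 55.8 and 79.5 CPM in the cells and 139 and 238 CPM in DNTT-low cells. GATA1, capped at 1 UMI per cell by the choice, was at 2.45 and 2.71 CPM against 7.03 and 11.7 CPM, and its part in these falls was not tested. Also lower by the rule were MICAL3 (-0.94), the platelet and endothelial adhesion receptor SELP (-0.78), the cyclooxygenase PTGS1 (-0.70), RAB13 (-0.59), SERPINB1 (-0.55) and NDUFAF2 (-0.50). With DNTT cut as a share of UMIs PTGS1 was at -0.00014 and SELP at -0.38, neither passing. PTGS1, RAB13 and NDUFAF2 passed in none of the 4 fits that left out 1 sum.

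On the list of stem cell regulators, 2 of 28 tested genes were higher and 1 lower. The median log2 difference was -0.11, and 8 of the 28 genes had a positive difference. The higher genes were HOPX and HOXA7, neither of them with DESeq2. HOPX, a homeodomain-only cofactor, was at 112 and 113 CPM against 87.3 and 69.0 CPM. HOXA7 was at 39.4 and 32.3 CPM against 28.3 and 20.4 CPM. The log2 differences of KIT (-0.02), ERG (-0.01) and TAL1 (-0.10) did not pass. MECOM and HLF, factors of long-term stem cells, were at 5.36 and 5.41 CPM and at 1.63 and 1.00 CPM in the cells, against 5.59 and 10.7 CPM and 2.70 and 1.34 CPM in DNTT-low cells, without passing.

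Myeloid genes differed in both directions, PLAC8 higher and SRGN and CSF2RB lower of 14 tested. SRGN, the granule proteoglycan serglycin, was at 2.21 and 2.10 CPM against 5.95 and 4.02 CPM, and CSF2RB, the shared chain of the IL-3, IL-5 and GM-CSF receptors, at 4.54 and 6.91 CPM against 7.75 and 15.7 CPM. Both passed in none of the 4 fits that left out 1 sum. Of 31 DNA replication genes UHRF1 alone passed, though 20 had an unadjusted edgeR p under 0.05, against 842 of all 9900 genes tested. The replication list's median log2 difference was 0.28. These values were obtained with the UMI limit on DNTT. With DNTT cut as a share of UMIs, MCM2 went from 0.65 to 0.13 and UHRF1 from 1.50 to 1.09. PCNA went from 0.24 to -0.37 and TK1 from 0.51 to -0.23. The part of depth in this was not tested. End joining is the repair pathway in which DNTT acts. None of 14 genes on the list of end joining and DNTT partners passed (edgeR, 2 with an unadjusted p under 0.05). Nor did any of 29 mitotic, 12 MHC class II, 53 ribosomal protein or 50 respiration genes.

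**Figure D3:**
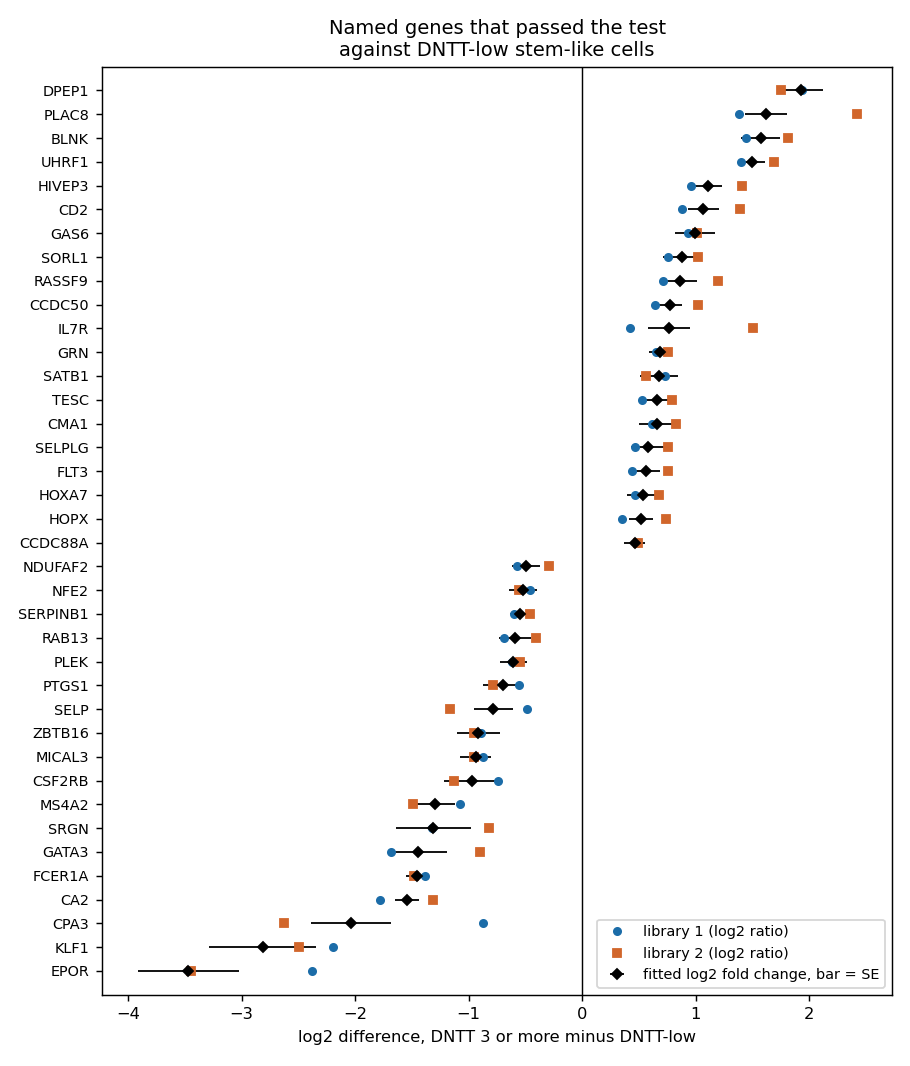
Log2 difference between the cells and DNTT-low cells (x axis) for 38 genes that passed the test, with the fitted value and its SE in black and the ratio within each library in color. Both libraries lie on the same side of 0 for all 38 genes, which the rule for the largest rises and falls required of those genes.

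Several of these calls changed in a narrower depth range or without the IL7R-positive cells. In cells of 8000 to 20000 UMIs, 49 genes passed, 41 of them among the 130, and UHRF1, DPEP1, PLAC8, BLNK, CD2, IL7R, CA2 and FCER1A were among them, whereas FLT3, SATB1, GRN, HOPX, HOXA7 and GATA3 were not. When cells with an IL7R UMI were left out, a choice made after seeing the data, 77 genes passed, 30 higher and 47 lower, and 66 of them were among the 130. DPEP1 (log2 difference 0.70), FLT3 (0.40), GRN (0.25), SATB1 (0.43), HOPX (0.32), HOXA7 (0.51) and GATA3 (-0.32) no longer passed, and UHRF1 (0.96), BLNK (0.99), PLAC8 (1.19), CD2 (0.66), HIVEP3 (0.65), CA2 (-1.43), FCER1A (-1.36) and EPOR (-3.46) did.

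The cells were not uniform. Each library was divided into tertiles by the share of UMIs that were DNTT (200 and 196 cells each), a division on a gene of the choice that is given without a test. DNTT ran from 196 through 353 to 939 CPM in library 1 and from 200 through 379 to 966 CPM in library 2. Median depth was lower toward the highest tertile, going from 16913.5 through 12650.5 to 11208 UMIs and from 20726 through 16633 to 12535.5 UMIs, and its part in what follows was not tested.

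IL7R, DPEP1, PLAC8, CD2 and UHRF1 were concentrated in the highest tertile. IL7R was at 4.74, 10.6 and 59.0 CPM in library 1 and 2.68, 6.72 and 64.4 CPM in library 2. DPEP1 was at 4.19, 3.80 and 45.5 CPM and at 2.20, 4.28 and 57.5 CPM, and PLAC8 at 8.65, 14.1 and 79.2 CPM and at 4.15, 5.50 and 59.0 CPM. For these genes the larger step came between the middle and the highest tertile. CD2 (34.9, 44.1 and 142 CPM in library 1) and UHRF1 (39.1, 36.9 and 137 CPM) had the same form. EBF1 was at 1.40, 0.00 and 8.43 CPM in library 1 and at 0.00, 0.916 and 9.96 CPM in library 2. FLT3 was graded more evenly, from 34.1 through 46.8 to 66.6 CPM and from 34.9 through 40.3 to 68.2 CPM.

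Other genes ran the opposite way. ZBTB16 stood at 13.1, 10.3 and 1.26 CPM in library 1 and at 22.9, 16.5 and 2.68 CPM in library 2. MCM3, a subunit of the replicative helicase, went from 94.1 through 57.0 to 40.9 CPM and from 109 through 96.2 to 61.3 CPM, and RRM2, a ribonucleotide reductase subunit, from 16.7 to 2.53 CPM and from 17.3 to 5.75 CPM. The summed DNA replication list went from 1817 through 1413 to 1232 CPM and from 1874 through 1606 to 1358 CPM, although UHRF1, which belongs to it, was highest there. KIT was at 96.3, 93.5 and 89.3 CPM and at 118, 118 and 110 CPM. The MHC class II list went from 812 to 1387 CPM and from 623 to 1281 CPM, led by DLA-DRA (231 to 451 CPM and 109 to 279 CPM).

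**Figure D4:**
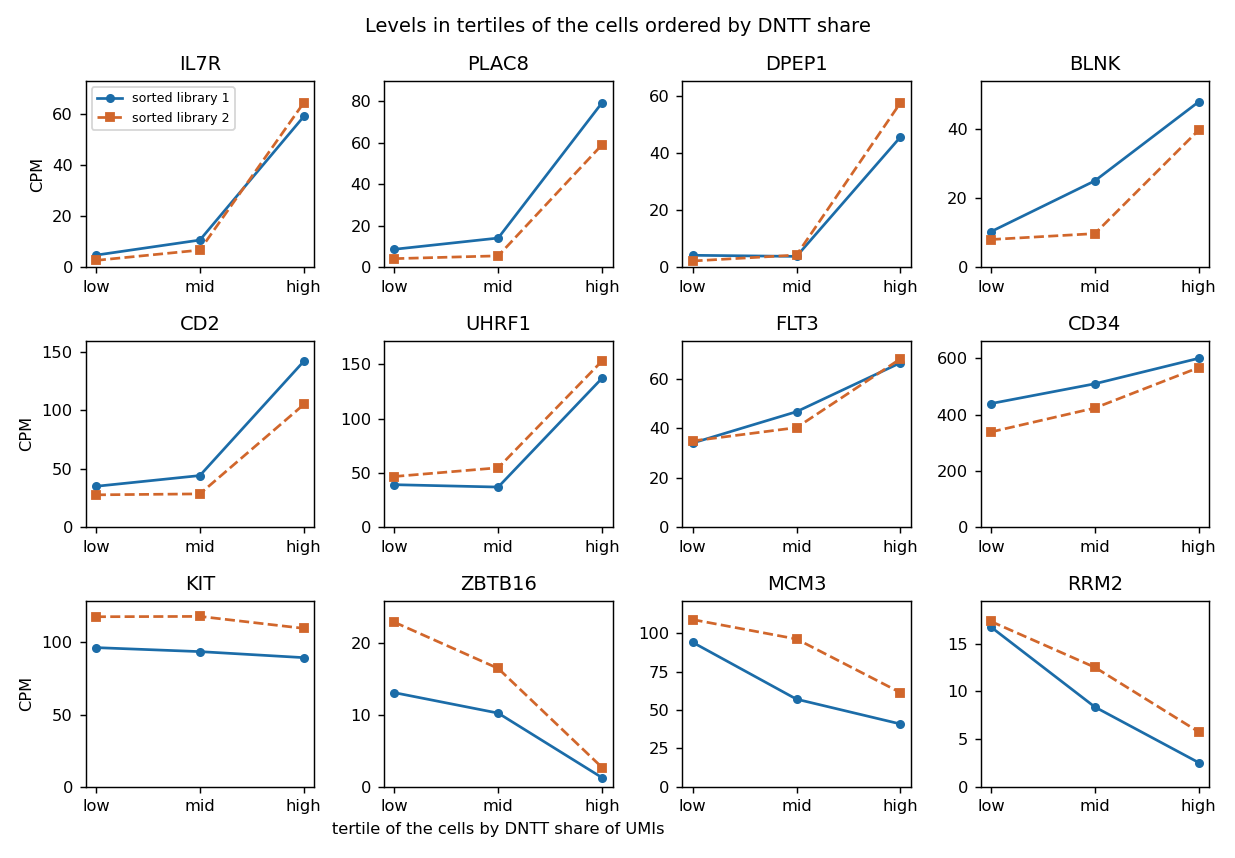
CPM (y axes, from 0) of 12 genes in the tertiles of the cells ordered by DNTT share of UMIs (x axes), 1 line per sorted library. IL7R, PLAC8, DPEP1, CD2 and UHRF1 stand apart in the highest tertile, FLT3 is graded more evenly, and ZBTB16, MCM3 and RRM2 are lowest there in both libraries.

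Part of the transcripts of these genes lay in a subset of cells with IL7R transcripts, chosen after values were seen and given without a test. At least 1 IL7R UMI was found in 66 of 600 cells of library 1 (11.0%, 95% interval 8.61 to 13.8%) and 66 of 588 of library 2 (11.2%, 8.79 to 14.1%). In DNTT-low cells there were 12 (2.79%) and 4 (1.89%). At 5000 UMIs an IL7R transcript was caught in 7.39% and 7.68% of the cells and in none of the 90 and 124 GATA1-high cells, which allows shares of up to 3.33% and 2.42%. Of the IL7R-positive cells, 51 and 53 belonged to the highest DNTT tertile. Their median depth, 13202 and 14973.5 UMIs, lay near the 13784.5 and 16764 UMIs of the others, and 3 and 1 were taken for doublets.

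The IL7R-positive cells held 11.0% and 10.5% of the UMIs of all the cells but 75.0% and 75.1% of the PLAC8 UMIs, 51.9% and 68.8% of the DPEP1 UMIs and 46.5% and 49.7% of the BLNK UMIs. They held 41.4% and 44.3% of the UHRF1 UMIs, 34.8% and 41.5% of the CD2 UMIs and 23.6% and 21.6% of the FLT3 UMIs. PLAC8 was at 203 and 136 CPM in them and at 8.38 and 5.26 CPM in the rest. TXLNB was at 76.0 and 58.4 CPM against 7.07 and 2.35 CPM. UHRF1 was at 246 and 326 CPM against 43.2 and 48.0 CPM, near the 264 and 364 CPM of VPREB1+PAX5+ cells. GRN was at 414 and 340 CPM against 58.6 and 53.2 CPM. EBF1 had 11 and 21 UMIs in the IL7R-positive cells and 14 and 8 in the rest, and RAG1 had 0 and 1. VPREB1, limited to 2 UMIs per cell, was at 31.7 and 40.2 CPM against 22.5 and 24.1 CPM.

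The 5 stem-like genes of the choice did not move alike in this subset. TFPI, an anticoagulant, was at 44.4 and 42.1 CPM against 160 and 161 CPM, and MSRB3 at 34.9 and 29.7 CPM against 103 and 99.0 CPM. SULT1B1 was lower in library 1 (213 against 353 CPM) and higher in library 2 (509 against 354 CPM), and RARRES2 was at 281 and 261 CPM against 333 and 319 CPM. BPI and PRSS57, granule proteins of neutrophil precursors, were at 4.22 and 7.65 CPM against 53.7 and 99.5 CPM and at 45.4 and 62.2 CPM against 178 and 215 CPM. CD34 (547 and 494 CPM against 500 and 418 CPM) and ADGRG1 (163 and 118 CPM against 180 and 153 CPM) differed less. CD74, the MHC class II chaperone, was lower in the IL7R-positive cells (82.4 and 68.9 CPM against 146 and 96.5 CPM), unlike in the highest DNTT tertile as a whole.

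**Figure D5:**
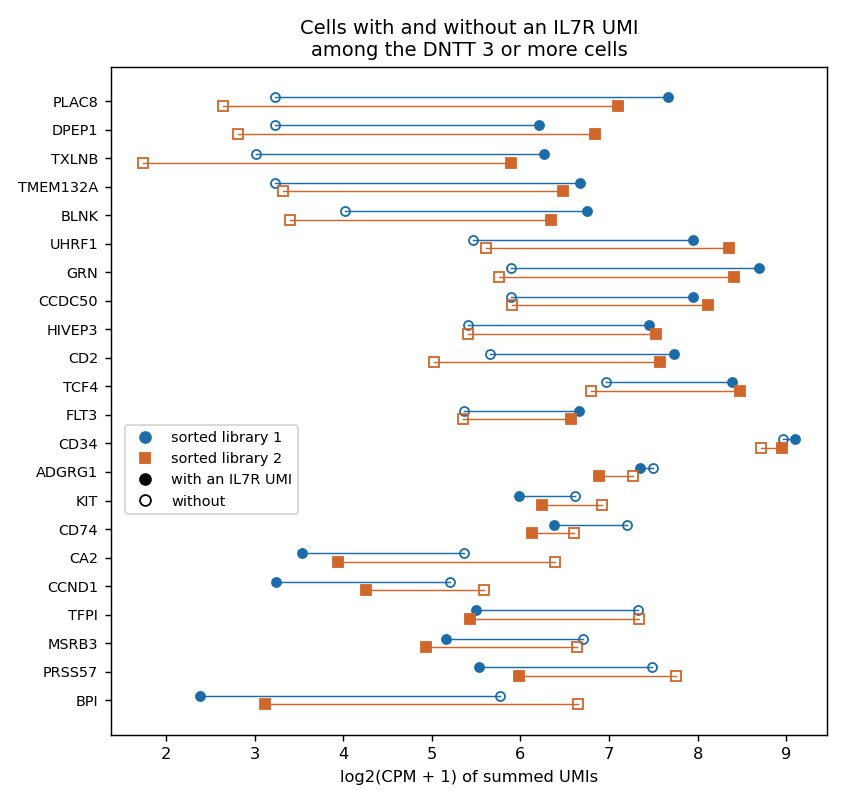
Levels (x axis, log2 of CPM plus 1) of 22 genes in the 66 and 66 cells with an IL7R UMI (filled) and the 534 and 522 without (open), by sorted library. PLAC8, DPEP1, TXLNB, BLNK, UHRF1 and GRN lie to the right in the IL7R-positive cells and TFPI, MSRB3, PRSS57 and BPI to the left in both libraries, while CD34 differs less.

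The second tested question was how the cells differed from VPREB1+PAX5+ cells, the class with the higher DNTT level. That class was far shallower, with median depths of 2437.5 and 3176 UMIs, so the 2 classes differed in UMIs per cell as well as in genes. The edgeR test called 4469 of 9900 genes (45.1%), with 2403 (24.3%) higher and 2066 (20.9%) lower in the cells. Without TMM factors, which shifts the median log2 difference of all genes from 0.02 to -0.21, the split was 1706 higher and 3296 lower, so that the share of higher calls went from 53.8% to 34.1%. Between cells of 8000 to 20000 UMIs, which left 148 and 53 VPREB1+PAX5+ cells, 1586 genes passed, and without the block 2418 did. Of 71 named calls that could be fitted in this window, 35 moved by more than 1.5 times, 32 of them toward 0. Barcodes called doublets made up 37 and 4 of the VPREB1+PAX5+ cells, and without all such barcodes 14 of 73 named calls moved by more than 1.5 times, each away from 0.

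VPREB1+PAX5+ cells were chosen for VPREB1 and PAX5, and the cells by upper limits on both and by their stem-like genes. Lower B-lineage genes and higher stem cell genes were therefore partly built into this comparison, and how far was not tested. Of 16 tested B-lineage genes 15 were lower in the cells, with a median log2 difference of -4.35, and CD79A, unreadable here, was the other. Within the depth window 10 were lower and 2 higher. VPREB3, a surrogate light chain partner, was at 1.28 and 0.902 CPM against 363 and 495 CPM. EBF1 was at 2.91 and 2.91 CPM against 151 and 189 CPM. DPEP1 and BLNK, higher in the cells than in DNTT-low cells, stood far below the VPREB1+PAX5+ level, DPEP1 at 738 and 812 CPM there and BLNK at 555 and 359 CPM. RAG1 and RAG2, at or below 0.233 CPM in the cells, were at 132 and 80.9 CPM and at 42.7 and 34.4 CPM there. AKAP12, a kinase scaffold, was at 3.14 and 3.51 CPM against 1353 and 2115 CPM (log2 difference -8.79 ± 0.13). CNTNAP5, POU2AF1, ALDH3A1, CD72 and AJAP1 completed the named falls, each at or below 0.301 CPM in the cells and between 35.0 and 150 CPM in VPREB1+PAX5+ cells. AKAP12 was at -6.55 in the depth window.

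The early lymphoid list was divided, with 7 of 24 genes higher and 13 lower in the cells, and 6 and 6 in the depth window. Lower were FOXO1 (log2 difference -4.94 ± 0.12), which drives RAG and IL7R transcription, IL7R (-2.63 ± 0.12), MEF2C (-2.04 ± 0.09) and BCL11A (-1.53 ± 0.10). The higher genes included FLT3 (1.33 ± 0.14), CD7 (2.62), CCR9 (4.47), HHEX (0.80), RUNX2 (1.76) and SATB1 (0.42). FLT3 was therefore higher in the cells than in DNTT-low and in VPREB1+PAX5+ cells, whereas IL7R was higher in each class from DNTT-low to VPREB1+PAX5+ cells. SATB1 stood at 30.5 and 23.5 CPM against 31.0 and 14.4 CPM, and it did not pass without TMM factors, with DESeq2 or in the depth window. In the depth window FOXO1 was at -2.95, MEF2C at -0.72, BCL11A at -0.35 without passing, CD7 at 1.65, RUNX2 at 2.38 and CCR9 at 3.25. CCR9 was at 6.19 without doublets and 8.30 without the VPREB1+PAX5+ cells of library 1.

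Of 28 stem cell regulators 20 were higher and 3 lower, with a median log2 difference of 2.09. The choice of the cells by stem-like genes favoured this direction. KIT was at 93.5 and 116 CPM against 14.5 and 9.57 CPM (3.23 ± 0.14), TAL1, a hematopoietic stem cell factor, at 75.2 and 71.3 CPM against 9.56 and 7.40 CPM (3.31 ± 0.15), and ESAM, an endothelial and stem cell adhesion molecule, at 97.0 and 129 CPM against 21.9 and 26.5 CPM (2.44 ± 0.11). CD164, FLI1 and ERG were the 3 lower, ERG not passing in the depth window. Erythroid and megakaryocyte genes were also mostly higher, 9 of 15 with 2 lower, including NFE2 (3.17 ± 0.22) and PLEK (2.21 ± 0.19). EPOR, KLF1 and ITGA2B, at most 1.20 CPM in either class, did not pass. Of 14 myeloid genes 7 were higher, among them SPI1 (1.31 ± 0.10) and BPI (3.42 ± 0.21), and 2, PLAC8 and GZMB, were lower. GZMB did not pass in the depth window or without the VPREB1+PAX5+ cells of either library.

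The values of several of these genes moved with doublets and depth. Without barcodes called doublets KIT was at 3.94, TAL1 at 4.95, NFE2 at 4.70 and BPI at 4.67. In the depth window KIT was at 2.32, ESAM at 1.83, NFE2 at 2.20, BPI at 2.46 and PLAC8 at -2.21, and the stem cell list had 15 higher and 2 lower genes. Without the VPREB1+PAX5+ cells of library 1 KIT was at 3.84, NFE2 at 3.89 and BPI at 4.05.

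The D-type cyclins differed in both directions. CCND1 was at 33.0 and 44.0 CPM against 5.83 and 4.35 CPM and CCND2 at 91.9 and 132 CPM against 19.6 and 16.1 CPM. CCND3, which pre-B receptor signalling uses, had a log2 difference of -3.61. The log2 differences of CCND1 and CCND2, 3.00 and 2.78, were 4.10 and 3.46 without doublets, CCND1 was at 3.65 without the VPREB1+PAX5+ cells of library 1, and in the depth window CCND2 was at 1.55 and CCND3 at -2.97. DNA replication genes were lower in the cells, 19 of 31 with none higher, such as UHRF1 (-1.89 ± 0.08), PCNA (-1.28 ± 0.13) and CDC6 (-1.53 ± 0.19), although both classes had passed the same limit on MKI67 and TOP2A. PCNA was at -2.15 and CDC6 at -2.95 in the depth window. Homing genes differed in both directions. CXCR4 was at 63.8 and 100 CPM against 406 and 517 CPM (-2.30 ± 0.10), while SELPLG (1.63) and CD44 (1.62) were among 13 of 23 that were higher. Without TMM factors 9 homing genes were higher and 6 lower, in place of 13 and 4. SELPLG and CD44 were at 0.75 and 0.60 in the depth window, and CD44 was at 2.35 without the VPREB1+PAX5+ cells of library 1.

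Of 53 ribosomal protein genes 52 were higher in the cells, with a median log2 difference of 0.57. Without TMM factors 49 were higher and 1 lower, with a median of 0.34. RPL18, RPL26 and RPL7A kept their direction in every setting tried. The rises named by the rule were APOC1, an apolipoprotein (153 and 130 CPM against 15.6 and 2.61 CPM), PGLYRP2 (log2 difference 4.05), GPRC5C (3.83), the low-affinity IgE receptor FCER2 (3.73), the G protein regulator RGS2 (3.64), LRMDA (3.64), PMP22 (3.64) and the retinol-binding protein RBP7 (3.60). These 8 values depended on the barcodes called doublets. Without them PGLYRP2 was at 7.58, APOC1 at 6.52 (3.97 with them), LRMDA at 6.12, PMP22 at 5.81, GPRC5C at 5.60, RGS2 at 5.49, FCER2 at 5.39 and RBP7 at 4.42. APOC1 did not pass with only the 2 classes in the fit. In the depth window APOC1 was at 3.08, RBP7 at 2.84, FCER2 at 2.82, GPRC5C at 2.69, LRMDA at 2.68, RGS2 at 2.66 and PMP22 at 2.56. Without the VPREB1+PAX5+ cells of library 1 APOC1 was at 5.85, PGLYRP2 at 5.63 and RBP7 at 4.34, and PGLYRP2 was at 3.45 without those of library 2.

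FCER2, better known from mature B cells, was at 132 and 131 CPM in the cells and at 13.3 and 8.27 CPM in VPREB1+PAX5+ cells. RGS2 was at 197 and 109 CPM against 20.5 and 7.40 CPM. Of 14 genes on the list of end joining and DNTT partners 6 passed, a share near the 45.1% of all genes. LIG4 (-1.98 ± 0.18), HMGB1 (-0.68 ± 0.06), HMGB2 (-1.01 ± 0.06) and PCNA were lower and POLL and PAXX higher, PAXX not passing without TMM factors and POLL not in the depth window. LIG4 was at -1.21 in the depth window, and POLL at 3.80 without the VPREB1+PAX5+ cells of library 1.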

How the data were processed

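Single-cell RNA sequencing (10x Genomics 3' kit, version 3.1) gave 5 libraries of dog marrow. The deposited matrices hold raw UMI counts made by the authors with Cell Ranger (7.0.1 per the file headers, 7.1.0 per the submitters' processing notes) on CanFam3.1, for 20257 features. No source used here names the annotation release, and no sequence table was used. Kept barcodes had 200 genes or more and no more than 10% of UMIs from mitochondrial genes. The cells and gene lists were chosen with earlier results of these data known.

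Counts were summed per library and class over the 4 classes (at least 20 cells each). They were tested with edgeR 4.0.16 (quasi-likelihood, robust, TMM factors, low-count filter by class, Benjamini-Hochberg adjustment at 0.05). The library was a block because classes of 1 library come from 1 dog. Deviations from class means correlated at 0.376 to 0.616 between classes of the same library, across 9912 genes. DESeq2 1.42.0 and other limits were alternatives. Doublets were the highest scrublet scores at an expected 0.8% per 1000 cells, since scrublet's own threshold marked 0 to 4 barcodes per library; they were left in. Intervals are exact binomial and cover counting error only. The limit that a count of 0 allows is 3 counts.

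Named genes passed 0.05, moved alike in both libraries and reached 20 CPM in the higher class (12 rises and 12 falls against DNTT-low cells, 8 and 8 against VPREB1+PAX5+ cells), or were among the 3 smallest p of a list. CCR9, ITGA2B, CCND3 and other list members outside that rule, and the genes given only by level in the IL7R-positive cells and in the tertiles, were chosen after their values were seen. Some genes that the rule takes in are not reported here.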

Additional observations from a re-analysis of the deposited data

How the results depend on the processing

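The count of genes that differed from DNTT-low cells, 130, was the less stable of the 2. It was 4 without the replicate block, 41 with DESeq2, 206 without the low-count filter, 265 with only the 2 classes in the fit, 49 in the depth window, 375 with DNTT cut at 0.02% of UMIs and 77 without cells with an IL7R UMI. Leaving out 1 sum gave 32 to 80, the lowest without the DNTT-low sum of library 2. Such fits assume that the lone sum varies like the other classes. It stayed within 1.5 times without TMM factors (136), without doublets (138) and with 6 or more DNTT UMIs set against 0 (167). Of 39 named calls, 11 passed in all 4 fits that left out a sum, and 37 were lost without the block. UHRF1 was the 1 named call that passed in every setting. None of the 39 changed direction in any setting.

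Against VPREB1+PAX5+ cells the 4469 calls became 2418 without the replicate block, 2845 with DESeq2, 1586 in the depth window and 3425 to 4111 when 1 sum was left out. All 73 named calls passed in those left-out fits, and 60 in every setting.

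Named values changed sign in these cases, and the cause was not tested. With DNTT cut as a share of UMIs, DLA-DOA went to 0.25, IFI44L to 0.0152, PCNA to -0.37, PRKDC to -0.0263, TK1 to -0.23, XAF1 to 0.13 and ZFP36 to 0.38. DLA-DOA went to 0.00491 with 6 or more DNTT UMIs against 0. With 1 sum left out, IFI44 ran from -0.359 to 0.0554 and XAF1 from -0.397 to 0.0669 (the highest without the sum of the cells of library 1), and CD34 from -0.0260 to 0.464 (the lowest without that of library 2). None of these had passed. CIITA against VPREB1+PAX5+ cells went to 0.23 in the depth window. The share in sorted over whole marrow stayed at 12.5 to 15.4 points when 1 library was left out. With 2 sorted libraries no exact test over libraries could go below 0.1.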
